A study of Mus musculus with 2 samples.

Results

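The microRNA genes that lie between Dlk1 and Dio3 on mouse chromosome 12 were examined in regenerating tibialis anterior muscle of Mef2a knockout and wild type mice. The members are the 42 probe sets, of 35557 on the array, that are numbered between those of Dlk1 and Dio3 and carry a microRNA symbol in the platform annotation. The rule uses no measured value, but it was set with earlier results of these data known. Of the 42, 40 carry 1 symbol, while Mir433 shares its probe set with 6430411K18Rik and Mir410 shares its own with Mirg. All 42 genes lie between Dlk1 and Dio3 in RefSeq (GRCm38.p6), and in the same order as their probe sets. RefSeq lists 61 microRNA genes there, of which the other 19 were not analysed here.

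The knockout group carried the genotype Mef2a -/- and the control group Mef2a +/+. Both were of strain 129Sv/C57BL6, of both sexes and 2 to 4 months old, and both had received 50 µl of 10 µM cardiotoxin in the right muscle, a venom peptide that destroys fibres but spares the cells that rebuild them. Muscle was taken on day 7, and equimolar RNA of 5 mice per genotype was pooled and measured on 1 array. With 1 array a group there is no replicate, no error and no test. Values are on the log2 scale of RMA, a method that normalises arrays to a common distribution, and a difference is the log2 value of the labelled knockout pool minus that of the wild type pool. The probe set of Mef2a itself stood at 8.92 in wild type and at 9.06 in the labelled knockout, so it does not check the genotype labels, on which every direction below rests. The deleted part of the gene is not given in the labels. The 15 fibre markers lay between 9.40 and 12.56 in wild type and between 8.78 and 12.52 in the labelled knockout.

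Dlk1-Dio3 is an imprinted domain, in which the 2 parental chromosomes are used differently. The copy inherited from the mother gives the long non-coding RNAs Meg3, Rian and Mirg together with small nucleolar RNAs and microRNAs, all from the same strand, while the copy from the father gives the protein-coding genes Dlk1, Rtl1 and Dio3. The microRNAs are cut as short hairpins from long precursor transcripts, and each mature strand then pairs with messenger RNAs mainly through its seed, bases 2 to 8. In neurons MEF2 factors are known to drive transcription of the stretch from Mir379 to Mir410. The study's own published work concerns MEF2A control of this cluster in muscle and repression of the WNT antagonist gene Sfrp2 by miR-410 and miR-433.

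The mature strands below, from the RefSeq table of GRCm38.p6 and written 5′ to 3′ with the seed in capitals, belong to the 7 members whose value was at least 2-fold lower in the knockout pool. They are shown because these genes carry the largest differences.
miR-410-5p: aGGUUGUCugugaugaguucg
miR-410-3p: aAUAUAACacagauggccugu
miR-136-5p: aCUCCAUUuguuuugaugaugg
miR-136-3p: aUCAUCGUcucaaaugagucuu
miR-434-5p: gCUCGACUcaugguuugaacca
miR-434-3p: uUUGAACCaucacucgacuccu
miR-495-5p: gAAGUUGCccauguuauuuuucg
miR-495-3p: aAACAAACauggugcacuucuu
miR-539-5p: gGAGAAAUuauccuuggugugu
miR-127-5p: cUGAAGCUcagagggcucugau
miR-127-3p: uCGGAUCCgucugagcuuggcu
miR-409-5p: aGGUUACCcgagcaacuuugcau
miR-409-3p: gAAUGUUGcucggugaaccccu
The 13 strands have 13 different seeds. Of these, those of miR-410-3p and miR-495-3p occur in mature strands of RefSeq microRNA genes outside the domain, in 4 and 2 genes. Across all members the table held 80 mature strands with 77 different seeds.

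A member was lower in the labelled knockout pool in 41 of 42 cases. The median difference was -0.59, a 1.51-fold lower value, and single differences ran from -1.65 to 0.07. Of all probe sets 51.9% were lower, with a median of -0.02. At least 1.5-fold lower were 21 of the 42 members, where 5.03% of all probe sets were, and at least 2-fold lower were 7, where 0.956% of all probe sets were. None of the 42 was 1.5-fold higher, where 6.6% of all probe sets were.

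**Figure D1:**
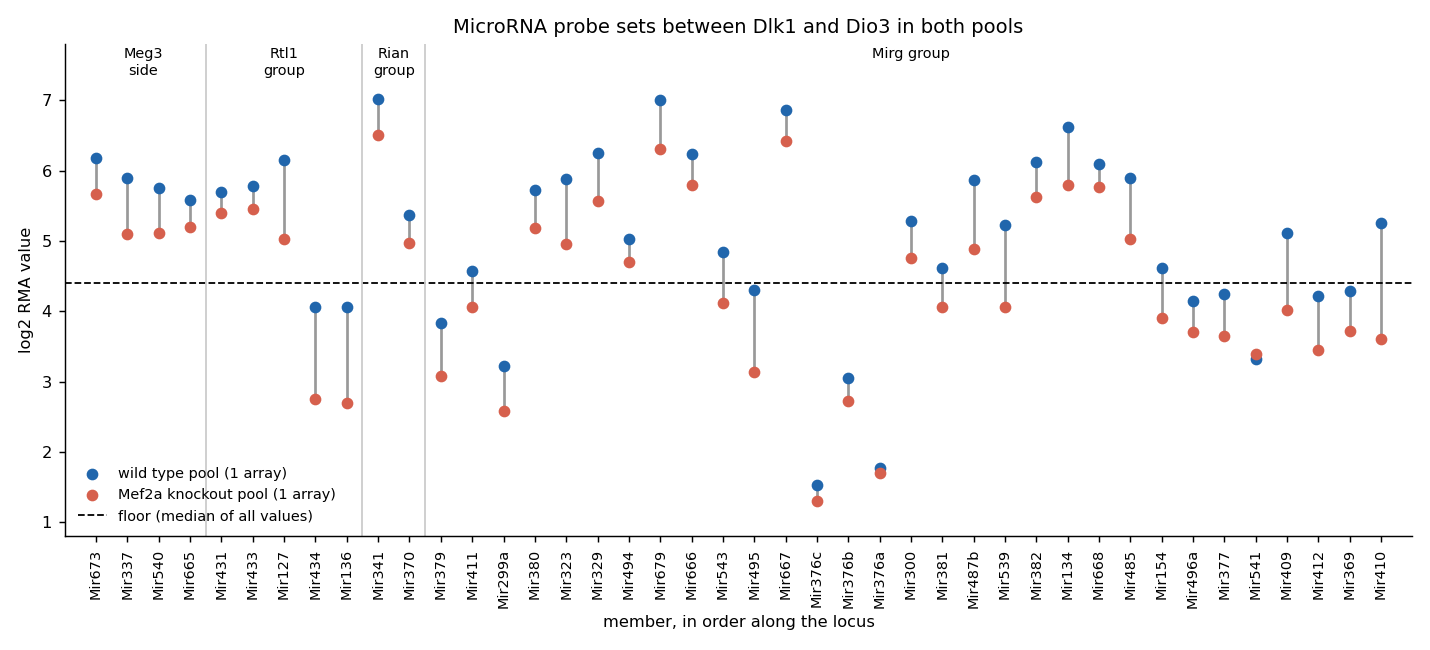
Log2 RMA values (y axis) of the 42 members in order along the locus (x axis) in the wild type pool (blue) and the labelled knockout pool (red), 1 array each, with a grey line joining both and a dashed line at the floor of 4.39. The red point lies below the blue one for every member except Mir541, and the gaps are longest at Mir410, Mir136 and Mir434.

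Many members gave low signals. A floor was set at 4.39 log2 units, the median over both arrays, and 29 members reached it in at least 1 pool. Of these, 22 reached it in both pools and 7 in the wild type pool alone, and since the latter passed only through their higher value, the members at the floor are not used as support. Among the 29, 14 were at least 1.5-fold lower (3.2% of all probe sets at the floor) and 4 at least 2-fold lower (0.619%). Among the 13 members under the floor in both pools, 7 were at least 1.5-fold lower and 3 at least 2-fold lower. Under the floor the shares of all probe sets were 7.03% and 1.33%.

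The members nearest the start of the maternal transcripts are Mir673, Mir337, Mir540 and Mir665, between Meg3 and the Rtl1 group. All 4 were lower in the labelled knockout pool, with a median of -0.57. Mir337 stood at 5.89 in wild type and 5.10 in the labelled knockout, 1.73-fold lower. Mir540 stood at 5.75 and 5.12, or 1.55-fold lower. Mir673 (6.18 and 5.67, a difference of -0.51) and Mir665 (5.58 and 5.20, a difference of -0.38) lay inside 1.5-fold.

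The Rtl1 group is transcribed from the strand opposite Rtl1, a retrotransposon-derived gene needed in the placenta and in muscle. Its microRNAs are fully complementary to the Rtl1 messenger and are known to guide its cleavage. Its differences had a standard deviation of 0.53 over 5 members, against 0.35 in the Mirg group and 0.17 over the first 4 members. Mir136 had 4.06 in wild type and 2.69 in the labelled knockout, and Mir434 had 4.05 and 2.75, so these neighbours were 2.58-fold and 2.47-fold lower, both with all values under the floor. Mir127, which lies next to Mir434, was 2.17-fold lower and above the floor in both pools, at 6.14 and 5.02. The members on the upstream side of the same group differed by less. Mir431, a microRNA studied in satellite cells, had 5.69 and 5.39, a difference of -0.30. Mir433, a repressor of Sfrp2 in the study's published work, had 5.77 and 5.45, a difference of -0.32, on a probe set that also covers 6430411K18Rik. The median over the 5 was -1.12. Rtl1 itself had 5.18 and 4.50, a difference of -0.69, so it was lower together with the microRNAs that lie opposite it. The Mir127 hairpin (chr12:109592846-109592915, plus strand, GRCm38.p6) is printed as the member of this group with both values above the floor and the largest difference. It has 70 bases, and capitals mark its 2 mature strands.
Mir127 hairpin: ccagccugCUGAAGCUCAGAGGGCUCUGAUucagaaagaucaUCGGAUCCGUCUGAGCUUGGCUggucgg
Which part of a hairpin, or of the longer transcript around it, a probe set reads is not known here, and the values do not separate them. The values are therefore not measures of the mature strands.

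The Rian group, named after the long RNA near which it lies, holds Mir341 and Mir370. Mir341 read 7.02 in wild type against 6.51, a difference of -0.52, and Mir370 read 5.37 against 4.97, a difference of -0.40. Neither reached 1.5-fold.

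The other 31 members, from Mir379 to Mir410, form the Mirg group. The name marks a position only, since the members from Mir379 to Mir485 lie before the start of Mirg in RefSeq. The group held 30 lower members with a median of -0.61, 16 of them at least 1.5-fold and 4 at least 2-fold lower. Of all probe sets 51.9% were lower, 5.03% at least 1.5-fold and 0.956% at least 2-fold. Only 20 of the 31 members reached the floor in at least 1 pool. The largest difference of the group was at the downstream end. The probe set of Mir410, another repressor of Sfrp2 in the study's published work, read 5.26 in wild type and 3.60 in the labelled knockout, 3.14-fold lower. Its value in the labelled knockout pool was under the floor. It is also the only probe set of Mirg on the array, so a difference in the long RNA and one in the microRNA cannot be told apart there.

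Mir539 had 5.23 in wild type and 4.06 in the labelled knockout (2.24-fold lower). Mir495 had 4.31 and 3.13 (2.26-fold lower, with both values under the floor). Mir409 had 5.11 and 4.02 (2.14-fold lower). Each of these 3 was under the floor in the labelled knockout pool. Just short of the 2-fold limit lay Mir487b, with 5.87 against 4.88 (1.97-fold lower). Mir323 followed with 5.88 against 4.96 (1.90-fold lower). Both were above the floor in both pools, as were the following members. Mir485, a regulator of synapses, had 5.90 and 5.02 (1.84-fold lower). Mir134, which limits the size of dendritic spines in neurons, had 6.62 and 5.80 (1.76-fold lower). Mir679 had 7.00 and 6.31 (1.61-fold lower). Mir329 had 6.25 and 5.57 (1.60-fold lower). These 6 members, between 1.60-fold and 1.97-fold lower, thus had both values above the floor.

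Other members past 1.5-fold had at least 1 value under the floor. Mir412 had 4.22 in wild type and 3.45 in the labelled knockout (1.70-fold lower). Mir379, the first gene of the group, had 3.83 and 3.08 (1.68-fold lower). Mir543 had 4.84 and 4.11 (1.66-fold lower). Mir154, which gives its name to a family of related hairpins in this group, had 4.61 and 3.91 (1.62-fold lower). Mir299a had 3.21 and 2.58 (1.55-fold lower, but -0.49 on the log2 scale with a loess trend on mean expression removed). Mir377 was the nearest to the 1.5-fold limit of those past it, with 4.25 and 3.64 (1.52-fold lower, but -0.50 with that trend removed). Mir369 was the nearest of those short of it, with 4.29 and 3.72 (1.49-fold lower), followed by Mir381 with 4.62 and 4.05 (1.48-fold lower). The limit therefore divides members that differ by very little.

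The remaining 13 genes of the group lay further inside 1.5-fold, and those of them under the floor were named after their values had been seen. Mir300 (5.28 and 4.76), Mir380 (5.72 and 5.19), Mir411 (4.58 and 4.06) and Mir382 (6.12 and 5.62) differed by -0.52, -0.53, -0.52 and -0.51 in the same order, close to the median of all members. Mir667 (6.86 and 6.41), Mir496a (4.15 and 3.70) and Mir666 (6.23 and 5.79) differed by -0.45, -0.45 and -0.44. Mir494 (5.03 and 4.70) and Mir668 (6.09 and 5.77) differed by -0.33 and -0.32. The Mir376 genes, whose transcripts are known for adenosine-to-inosine editing, had small differences and values under the floor in both pools. Mir376b had 3.05 and 2.73, Mir376c 1.52 and 1.30, and Mir376a 1.77 and 1.69, with differences of -0.32, -0.22 and -0.08. Mir541 was the only member that was higher in the labelled knockout pool, by 0.07 (3.39 against 3.32, both under the floor).

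**Figure D2:**
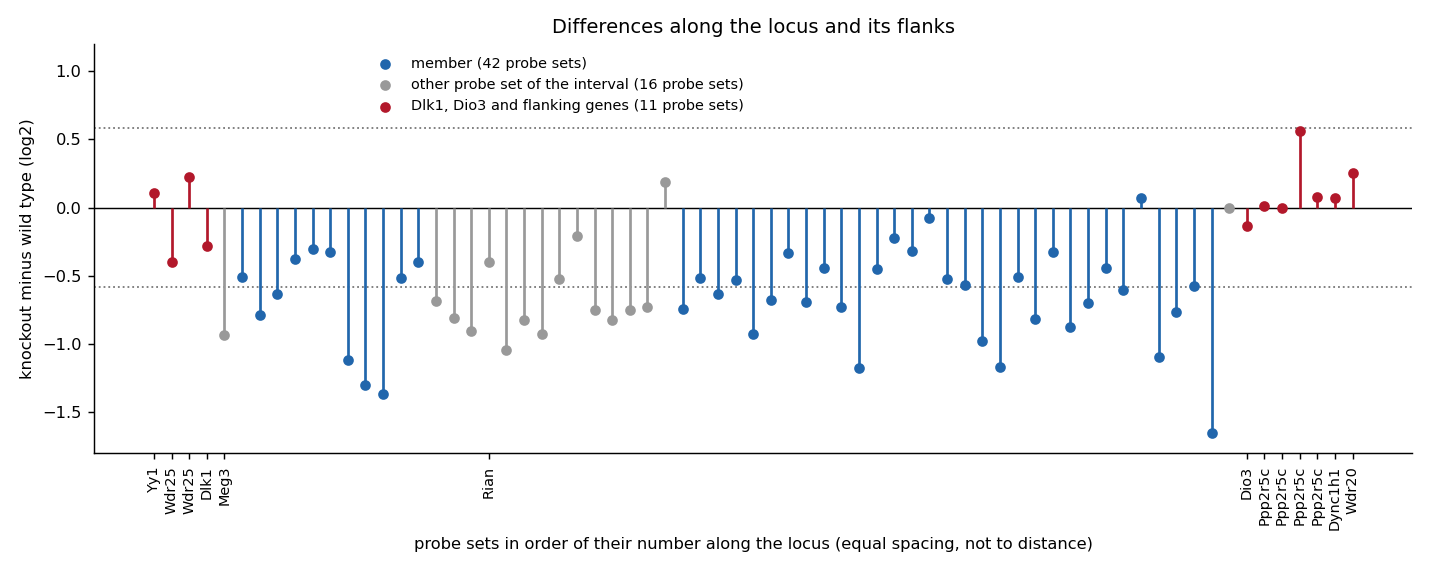
Differences in log2 units (y axis, labelled knockout minus wild type) of the 42 members (blue), the 16 other probe sets of the interval (grey) and 11 probe sets of Dlk1, Dio3 and flanking genes (red), in order of probe set number (x axis, evenly spaced), with dotted lines at 1.5-fold. Differences from Meg3 to Mir410 are negative except for Mir541 (0.07) and 1 probe set without a symbol (0.19), while the red points on both sides stay within 1.5-fold.

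The median difference of the listed flanking genes was smaller in size than that of the members. Of 10 flanking genes, 5 before Dlk1 and 5 after Dio3, none differed by 1.5-fold in either direction. Of all probe sets 5.03% were 1.5-fold lower and 6.6% higher, so most lie within that limit. The median over the 10 genes was 0.06, with a range from -0.40 (Wdr25) to 0.26 (Wdr20). One of several probe sets of Ppp2r5c differed by 0.56. The probe set of Hsp90aa1 used, that with the highest mean, is not numbered near the locus. It differed by 0.18, and the others of this gene by 0.17 and 0.32. Of the 10 genes, 8 reached the floor in at least 1 pool, and Begain and Mok did not. For Wdr25 a second probe set, under the floor, differed by 0.22. Dlk1, at the upstream border and read from the other parental chromosome, differed by -0.28 (7.13 against 7.41). Dio3, at the downstream border, differed by -0.13 with both values under the floor. Within the interval, 14 of the 16 probe sets that carry no microRNA symbol were lower, with a median of -0.75, and 11 of them were at least 1.5-fold lower. They include Meg3 (10.05 in wild type, 9.12 in the labelled knockout, 1.91-fold lower) and 4 probe sets with small nucleolar RNA symbols, whose median was -0.86 and of which 1 also carries the symbol Rian. The probe set of Rian alone had 6.72 and 6.32, a difference of -0.40, inside 1.5-fold. Of the 16, the exceptions were 2 probe sets without a symbol, with differences of 0.19 and 0.00, as Mir541 was among the members. Another 2 without a symbol shared the same values, 5.38 in wild type and 4.63 in the labelled knockout, a difference of -0.75. They count as 2 among the 16 but may not be separate measurements. Over the 42 members, order along the locus and difference had a Pearson r of -0.06 and a Spearman rho of -0.08. Neighbouring members had differences that correlated with a Pearson r of 0.15 over 41 adjacent pairs, which share the arrays and the locus.

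The long transcripts that carry the members are thought to begin at Meg3, and the window at its upstream start in RefSeq is shown because members, Meg3 and small nucleolar RNA probe sets were lower together. The window runs from 250 bases before to 50 after the start (chr12:109540746-109541045, plus strand, RefSeq, GRCm38.p6). Capitals mark a cAMP response element, TGACGTCA, whose first base is at -57, and a TATA box, TATAAA, at -25. Both were picked after the sequence had been read.
Meg3 promoter: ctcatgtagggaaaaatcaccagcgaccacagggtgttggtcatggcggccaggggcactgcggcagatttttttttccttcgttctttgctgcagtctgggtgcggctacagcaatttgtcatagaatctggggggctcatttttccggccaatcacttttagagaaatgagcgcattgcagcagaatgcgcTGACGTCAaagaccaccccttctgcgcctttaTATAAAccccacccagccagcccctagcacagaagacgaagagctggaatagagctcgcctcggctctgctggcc
On either strand, TGACGTCA occurs in 1.79% and TATAAA in 13.6% of the 32851 promoter windows of this length, and TATAAA also matched the other strand of this window at bases that overlap the capitals. The MEF2 consensus (3.19% of windows) and the E-box CANNTG (72.3%), which myogenic factors bind, were not found in these 300 bases, which says only that these letters are not in this window. RefSeq holds another start of Meg3 downstream, and the windows there and at the starts of Rian and Mirg hold an E-box but neither the MEF2 consensus, TGACGTCA nor TATAAA.

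MicroRNA probe sets elsewhere in the genome numbered 313, of which 60.4% were lower, with a median of -0.14. Some of them repeat the values of another probe set of the same genes, and some carry a host gene. They are therefore not 313 separate microRNA genes. At least 1.5-fold lower were 4 of 313 (1.28%), all under the floor in both pools, and 0 were at least 2-fold lower. The lowest was Mir100, with 2.41 in wild type and 1.57 in the labelled knockout. At the floor there were 79, of which 0 were 1.5-fold lower and 5 (6.33%) were 1.5-fold higher. These 5 were Mir692-1 and 4 probe sets that carry Mir692-3 and Mir692-2 together with the ferritin gene Ftl1. Among the 61 with 1 symbol, 1 was 1.5-fold higher. The difference between both sets of microRNA probe sets cannot be tested with 1 array a group.

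**Figure D3:**
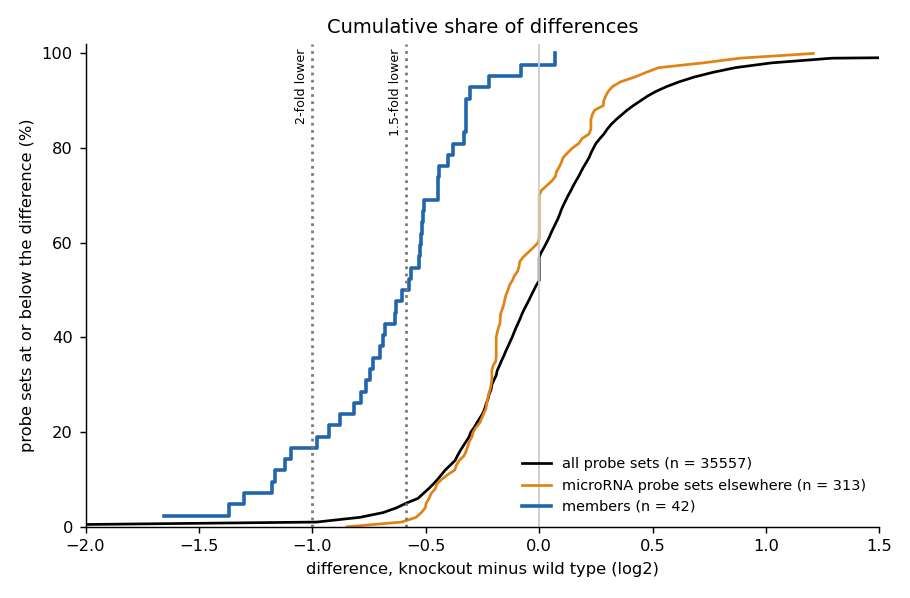
Share of probe sets in percent (y axis) at or below a given difference in log2 units (x axis, labelled knockout minus wild type), for the 42 members (blue), 313 microRNA probe sets elsewhere (orange) and all 35557 probe sets (black), with dotted lines at 1.5-fold and 2-fold lower. The members' median of -0.59 lies left of the medians of -0.14 and -0.02.

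The muscle microRNA genes promote differentiation and fibre identity. Of 9 listed, 7 were measured, with a median of -0.19, and 0 of 7 differed by 1.5-fold in either direction. Of all probe sets 5.03% were 1.5-fold lower and 6.6% higher. Most genes of any list would thus lie within that limit, here and in the lists that follow. Mir1a-1 had 6.11 in both pools. Mir133a-1 had 5.18 and 4.88, a difference of -0.29. Mir133b, on a probe set shared with its host Lincmd1, had 6.03 and 6.36, a difference of 0.33. Mir206, a microRNA of regenerating fibres, had 2.99 and 2.52, a difference of -0.48 with both values under the floor. The largest difference of this list, -0.50, was that of Mir1a-2 (2.71 and 2.21, also under the floor). Genes that make and load microRNAs also stayed within 1.5-fold, 15 of 15, with a median of 0.10. Drosha and Dgcr8, which cut hairpins from the primary transcript, differed by -0.07 and -0.06, and Dicer1, which cuts the hairpin, by -0.03. The largest differences of this list were those of Ago1 and Ago3 (0.40 each), which hold the mature strand, and Tarbp2 (-0.38), a Dicer partner. Of 14 regulators of imprinting, 0 differed by 1.5-fold. The DNA methyltransferase genes Dnmt1 and Dnmt3a, of which the former maintains imprints, differed by 0.18 and 0.38, and Trim28, a repressor held at imprinted domains, by 0.18.

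Seeds were shared by members in 3 cases, each by 2 genes. The strands are set side by side because they let genes with 1 seed be compared.
miR-410-5p: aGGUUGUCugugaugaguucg
miR-494-5p: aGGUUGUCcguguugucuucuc
miR-379-3p: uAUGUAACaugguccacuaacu
miR-411-3p: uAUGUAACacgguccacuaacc
miR-376b-5p: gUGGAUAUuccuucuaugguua
miR-376c-5p: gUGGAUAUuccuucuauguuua
Mir410 and Mir494 differed by -1.65 and -0.33. Mir379 and Mir411, which are neighbours, differed by -0.74 and -0.52. Mir376b and Mir376c differed by -0.32 and -0.22, but their hairpins also share a run of 31 bases, longer than the 25 bases of an array probe, so their values are uncertain as those of separate genes. It was the only such pair among 820 pairs of members' hairpins. Mir433 is printed as the second repressor of Sfrp2 in the published work, and Mir541 as the only member that was not lower.
miR-433-5p: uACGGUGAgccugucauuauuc
miR-433-3p: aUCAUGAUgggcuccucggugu
miR-541-5p: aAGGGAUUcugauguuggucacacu

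Base composition of the hairpin was set against the difference as a description. The 41 members with a hairpin in the table had 61 to 124 bases and between 29.1% and 62.0% of G and C. Over these 41, G and C content and difference had a Pearson r of 0.04 and a Spearman rho of 0.02, and hairpin length and difference had 0.24 and 0.29. Over the 28 at the floor the values for G and C were 0.27 and 0.28. Over 42 members, the mean value and the difference had a Pearson r of -0.04. Over the 29 members at the floor the Pearson r was 0.33 and the Spearman rho 0.31. The 21 members with the higher G and C content had a median of -0.63 and the other 20 one of -0.59.

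**Figure D4:**
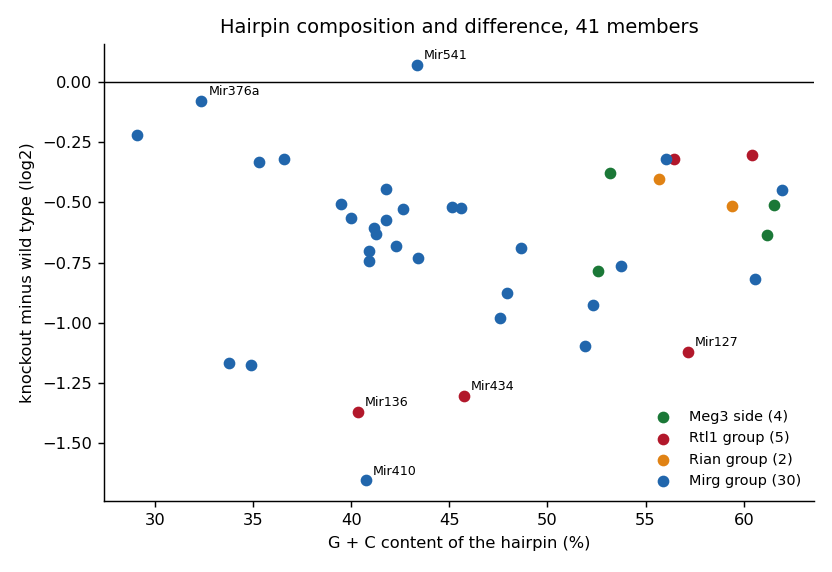
Difference in log2 units (y axis, labelled knockout minus wild type) against the G and C content of the hairpin in percent (x axis) for 41 members, coloured by group along the locus. Large and small differences occur on both sides of the median content of 45.1%.

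Values of some cell type markers also differed between the pools, and fewer cells of a type and less RNA per cell cannot be told apart in whole muscle. All 15 macrophage markers were higher in the labelled knockout pool, 14 of them by at least 1.5-fold (7.08% of all probe sets at the floor), with a median of 1.25. Their summed level on the linear scale was 3558 in wild type and 8019 in the labelled knockout, and none was under the floor. All 15 fibre markers were lower, with a median of -0.19, and 1 of them, Myh2, by 1.5-fold. Their summed linear level was 45966 and 40841. The 8 satellite cell and myoblast markers had a median of -0.09. The 7 fibroblast and 6 endothelial markers had medians of 0.03 and -0.02. Of these 21 markers 0 were past 1.5-fold, where 3.2% of all probe sets at the floor were lower and 7.08% higher. The part of these cell types in the members' difference was not tested. Of the 5 secreted Frizzled-related genes, which encode WNT antagonists, 2 were at least 1.5-fold higher and 1 lower. Sfrp2 had 6.90 in wild type and 9.20 in the labelled knockout, 4.92-fold higher. Sfrp1 differed by 1.42, Sfrp4 by 0.21, Sfrp5, under the floor, by -0.35, and Frzb by -1.20.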

How the data were processed

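RNA of 2 pools was measured on 1 array each. The log2 values were deposited by the authors after RMA, and the submitters' processing notes name Affymetrix Expression Console. No version, setting or genome build is stated in those notes. RMA equalises the distributions of arrays, so a change shared by most probe sets is not visible. The number of arrays limits the precision.

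Members were found by probe set number and platform annotation. Of 35557 probe sets, 21789 had 1 symbol, 1621 several and 12147 none. All 42 members matched a RefSeq mature sequence and 41 a hairpin. Differences, medians and counts past 1.5-fold and 2-fold were computed with pandas 2.3.3 under Python 3.11.15 and tested on simulated data. A list gene with several probe sets was represented by the one with the highest mean. Every member could be named, with values in full at the floor or past 1.5-fold; other genes came only from 12 lists. Members and lists were chosen with earlier results of these data known. Alternatives were centring, removal of a loess trend (statsmodels 0.14.6, span 0.3), other floors, members with 1 symbol, 1 value per gene, and subsets of the locus.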

Additional observations from a re-analysis of the deposited data

How the results depend on the processing

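The median stayed below 0 in each alternative tried. Of 42 members, 40 were below 0 with the loess trend removed and 41 with the differences centred. The median of -0.59 lies at the 1.5-fold limit, and it was -0.57 after centring, -0.54 with the loess trend removed, -0.56 over members at the floor and, in an alternative chosen after seeing the data, -0.52 without the Mirg group. The counts depended on the floor. Members at least 2-fold lower numbered 4 at the floor, 7 with no floor or a floor at the 25th percentile, 0 with one at the 75th, and 1 where both values had to reach it. Members at least 1.5-fold lower numbered 14, 21, 3 and 9 in the same order. A higher floor leaves fewer members to count. There were 42 with no floor, 29 at the floor and 22 where both values had to reach it. The counts are thus not to be compared without these numbers. Shares of all probe sets were not computed for the percentile floors or for both values. Among single members, Mir377 came inside 1.5-fold after centring (-0.58), and Mir377 and Mir299a did with the trend removed. The other 41 and 40 kept their side of the limit. No paired analysis was possible because each genotype has 1 array. Signal over background limits the 13 members under the floor.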

Other observations

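Some differences recur exactly across the table. To a tolerance of 0.00001, 1961 of 35557 probe sets (5.52%) had equal values in both pools, as had 32 of 313 microRNA probe sets elsewhere (10.2%) and 0 of 42 members. A difference found in at least 10 probe sets was carried by 7498 of all 35557, by 160 of the 313 and by 5 of 42 members. These 5 were Mir154 (-0.70, in 29 probe sets), Mir541 (0.07, in 27), Mir433 and Mir668 (-0.32, in 18) and Mir665 (-0.38, in 13).

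Of the 10 probe sets of the interval that carry no symbol, 8 were lower in the labelled knockout pool, with a median of -0.70, 6 by at least 1.5-fold. Of all probe sets 51.9% were lower and 5.03% at least 1.5-fold lower. Only 6 of the 10 reached the floor in at least 1 pool. Those at least 1.5-fold lower include the 2 that shared the same values. The last of the 10 before Dio3 had 3.92 in both pools.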
